A study of Arabidopsis thaliana with 14 samples.

Results

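The serine carboxypeptidase-like (SCPL) genes were followed in Arabidopsis thaliana rosettes whose night was prolonged beyond its normal end. Members were the genes with an SCPL symbol in the reference annotation that had a probe set annotated to them alone, with the brightest probe set taken per gene. The reference held 49 such genes, and 29 were measured, each by 1 probe set, of 13217 genes measured in all by such probe sets. None of the 29 lay on a probe set whose name marks a design shared between transcripts.

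All plants were wild-type Columbia-0 aged 5 to 6 weeks, raised in short days with 8 h of light, moved to a 14 h photoperiod on day 22 and kept in it for 11 days. Each of the 14 Affymetrix ATH1 arrays carried RNA of 3 pooled rosettes. The end of the night had 3 arrays, lettered A to C. The extended night had 2 arrays each at 4 h and 8 h, lettered A and B, and 2 each at 24 h and 48 h, lettered B and C. Single arrays were made at 2 h and 6 h of the extended night and, earlier, with 2 h of the night left. The comparison with the end of the night asks how transcripts change while the plant, kept from light, has no new photosynthate. The 24 h and 48 h arrays share their clock time with the end of the night, while 2 h to 8 h fall in what would have been day, so time of day and length of darkness cannot be told apart at those times.

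SCPL proteins have the α/β-hydrolase fold and the catalytic serine, aspartate and histidine of the carboxypeptidases, which remove amino acids from the C-terminal end of peptides and proteins, in plants largely in the vacuole. Part of the family no longer cuts peptides and works as acyltransferases, with glucose esters as acyl donors. SNG1 and its relative SNG2 make sinapoylmalate and sinapoylcholine in this way. BRS1, another member of the family, acts genetically with the brassinosteroid receptor. For most numbered members no biochemical role is assigned, and none is given for them here.

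The 29 measured genes cover the family unevenly. Of the 18 reference genes with numbers from 1 to 19, which include known acyltransferases, 2 were measured (scpl16 and scpl18). Of the 31 with numbers from 20 upwards, 27 were measured. The other 20 SCPL genes have no probe set annotated to them alone in the annotation used here. SNG1 and BRS1, listed under those names in the reference, had none either and were not analysed here. SCPL49, which the reference also lists under the name carboxypeptidase Y, is the one measured member whose alternative name states an enzyme.

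Values are log2 signals after the robust multi-array average (RMA), and a signal belongs to a probe set, so levels are compared between times and not between genes. Array medians lay between 6.62 and 6.77, and replicate arrays correlated at 0.975 to 0.993 across probe sets. The 48 h array B stood apart in its 25S rRNA control, at 8.98 log2 units against 11.05 to 13.78 on the other arrays, so calls at 48 h were also computed without it. Of 7 leaf markers only Rubisco activase (RCA) was measured. Its signal was 13.76, 13.79 and 14.03 at the end of the night, then 12.14 and 12.91 at 24 h, and 9.85 (array B) and 11.86 (array C) at 48 h. That fall was 3.00 ± 0.48 log2 units at 48 h (± gives the limma standard error throughout, adjusted p = 0.000733). Its part in the SCPL results was not tested. Both pollen markers stayed between 4.36 and 5.03 on every array, and no seed, flower or root marker was measured.

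By mean signal over all 14 arrays, those of the extended night included, the 29 members were split into a brighter and a dimmer set. The 13 members above the median of all probe sets had end of night means from 7.12 to 9.69. The 16 below it had end of night means from 4.28 to 6.28. The lowest of the brighter members over all 14 arrays was scpl50, at a mean of 6.81, and the highest of the dimmer ones was scpl31, at 6.65. Over the 14 arrays 16 members ranged over less than 1 log2 unit, and 4 ranged over 2 or more: scpl35 (3.17), scpl29 (2.98), scpl46 (2.65) and scpl31 (2.65). The first 3 of these went down, and scpl31 went up.

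**Figure D1:**
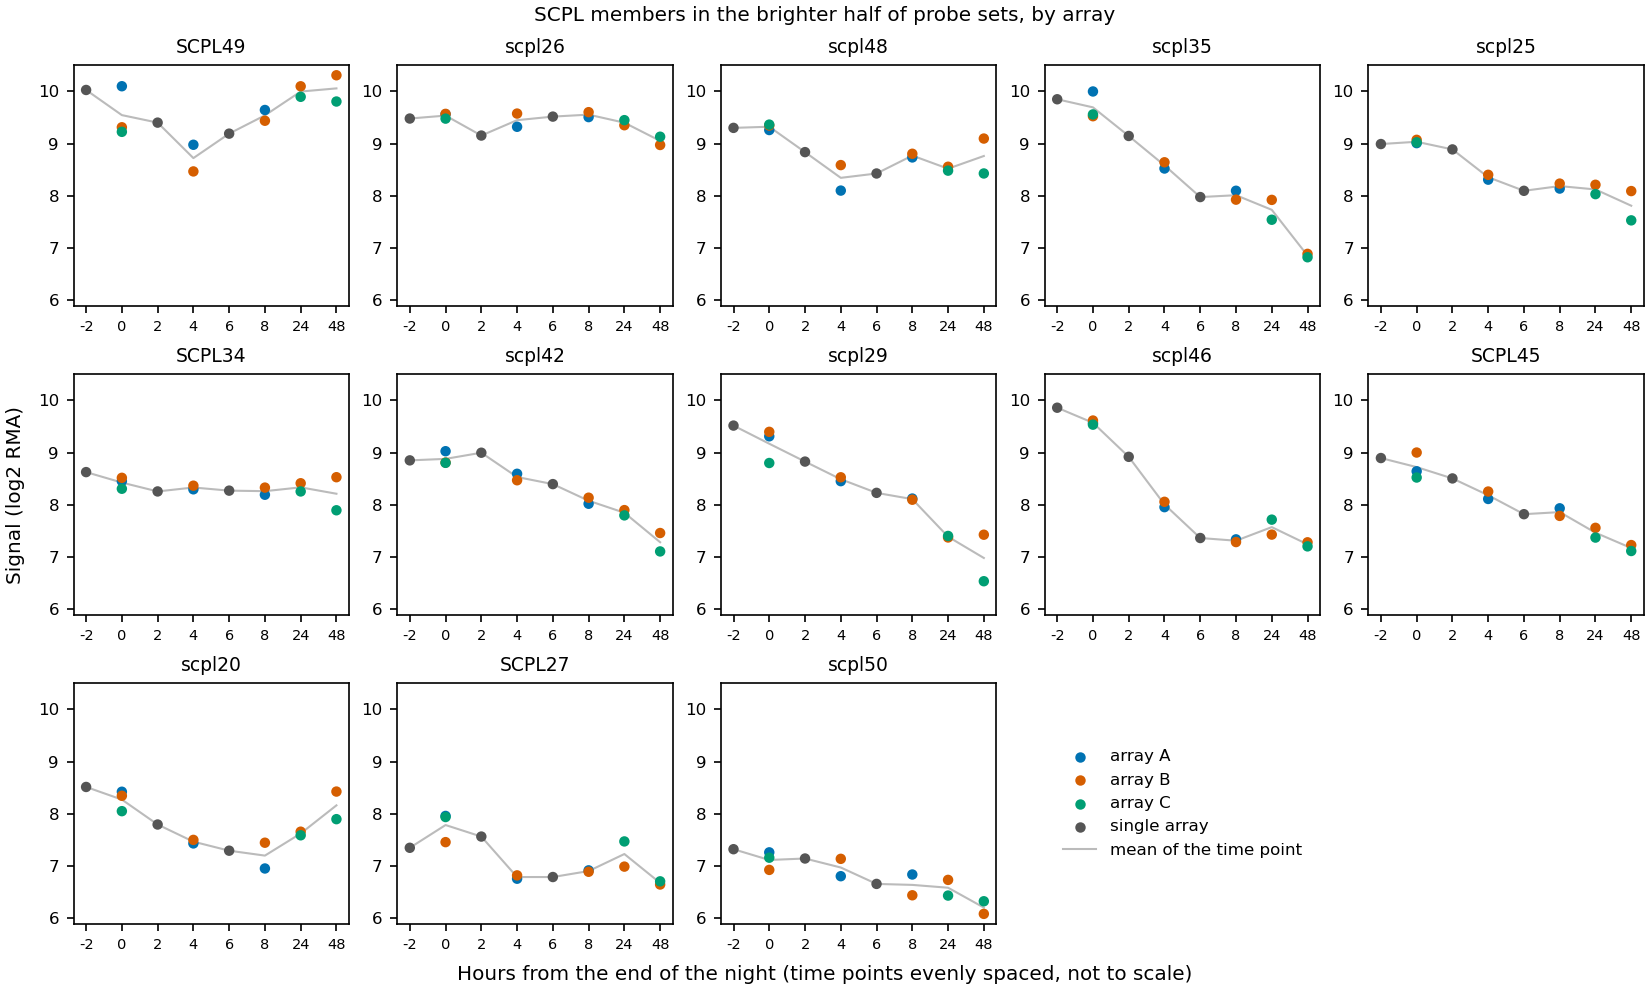
Signal of the 13 brighter SCPL members on each of the 14 arrays (log2 RMA, vertical axis) against hours from the end of the night (horizontal axis, time points evenly spaced). Points are arrays coloured by letter and the grey line joins time point means. scpl46 drops from 9.57 at the end of the night (array A) to 7.37 at 6 h, while SCPL49 dips to 8.47 at 4 h and is back at 10.31 on 48 h array B.

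The calls among the members were mainly downwards, and 15 of the 29 members were called at none of 4 h, 8 h, 24 h and 48 h. With a probe set called at a Benjamini-Hochberg adjusted p under 0.05 over all 22746 tested, 7 of the 29 members were lower at 4 h and 0 higher. Over all probe sets 16.3% were called at 4 h, 8.78% lower and 7.49% higher, against 24.1% of the members. At 8 h 8 members were lower and 0 higher (27.6% of the members, against 27.7% of all probe sets in either direction, 15.0% lower and 12.7% higher). For the higher calls of 0, limma at an unadjusted p under 0.05 also gave 0 at both times. At 24 h 10 were lower and 1 higher, where 32.6% of all probe sets were called, 17.2% lower and 15.5% higher. At 48 h 10 were lower and 2 higher, where 40.8% were called, 20.3% lower and 20.5% higher. The share of members called in either direction was therefore close to the background at 8 h and 48 h. With the array letter as a block the calls were 10 lower and 0 higher at 4 h, 9 and 0 at 8 h, 9 and 3 at 24 h, and 10 and 4 at 48 h. Over all 22746 probe sets that fit called 3238 lower and 2722 higher at 4 h, and 4430 and 3896 at 8 h. It called 4884 lower and 4764 higher at 24 h, and 5522 and 5707 at 48 h. In either direction, the share of members it called at 8 h, 24 h and 48 h was not above that of all probe sets. Without 48 h array B the 48 h calls were 11 lower and 0 higher, and without array C 9 lower and 4 higher. Fewer members were called at 4 h without 4 h array A or B, and fewer at 24 h without 24 h array B or C. The same held over all probe sets. Without 4 h array A the members were called, in either direction, no more often than all probe sets. Without 24 h array B or 48 h array B they were called about as often as all probe sets. The median change of the members was -0.15 without 4 h array A, -0.10 without 4 h array B and -0.11 without 24 h array B.

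Every one of these lower calls was made in the 13 brighter members. They were 7, 8, 10 and 10 of the 13 at 4 h, 8 h, 24 h and 48 h. Among all probe sets above the same median, 13.4%, 22.7%, 25.7% and 30.4% were called lower at these times. Lower calls were mostly above that median in the whole table too, with 1520 of 1997 at 4 h and 3458 of 4623 at 48 h. A fall has less room to show in a dim probe set, so the split by signal is a description and says nothing of expression differences between genes. The median change of the 13 was -0.68, -0.85, -0.80 and -1.11 log2 units, and that of the 16 dimmer members was -0.03, -0.01, 0.03 and 0.06. Across all 29 members it was -0.12, -0.12, -0.10 and -0.11, beside -0.02, 0.01, 0.02 and 0.03 for all probe sets.

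Overlap between arrays gave the same picture without a model. At 4 h both arrays lay below all 3 end of night arrays for 14 members (24.3% of all probe sets did so) and above them for 1 (20.8%). At 8 h the counts were 13 below (25.1%) and 1 above (25.2%), at 24 h 12 below (26.5%) and 3 above (28.9%), and at 48 h 13 below (27.1%) and 6 above (29.9%). Some dim members enter these counts with gaps far smaller than 0.1 log2 units.

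**Figure D2:**
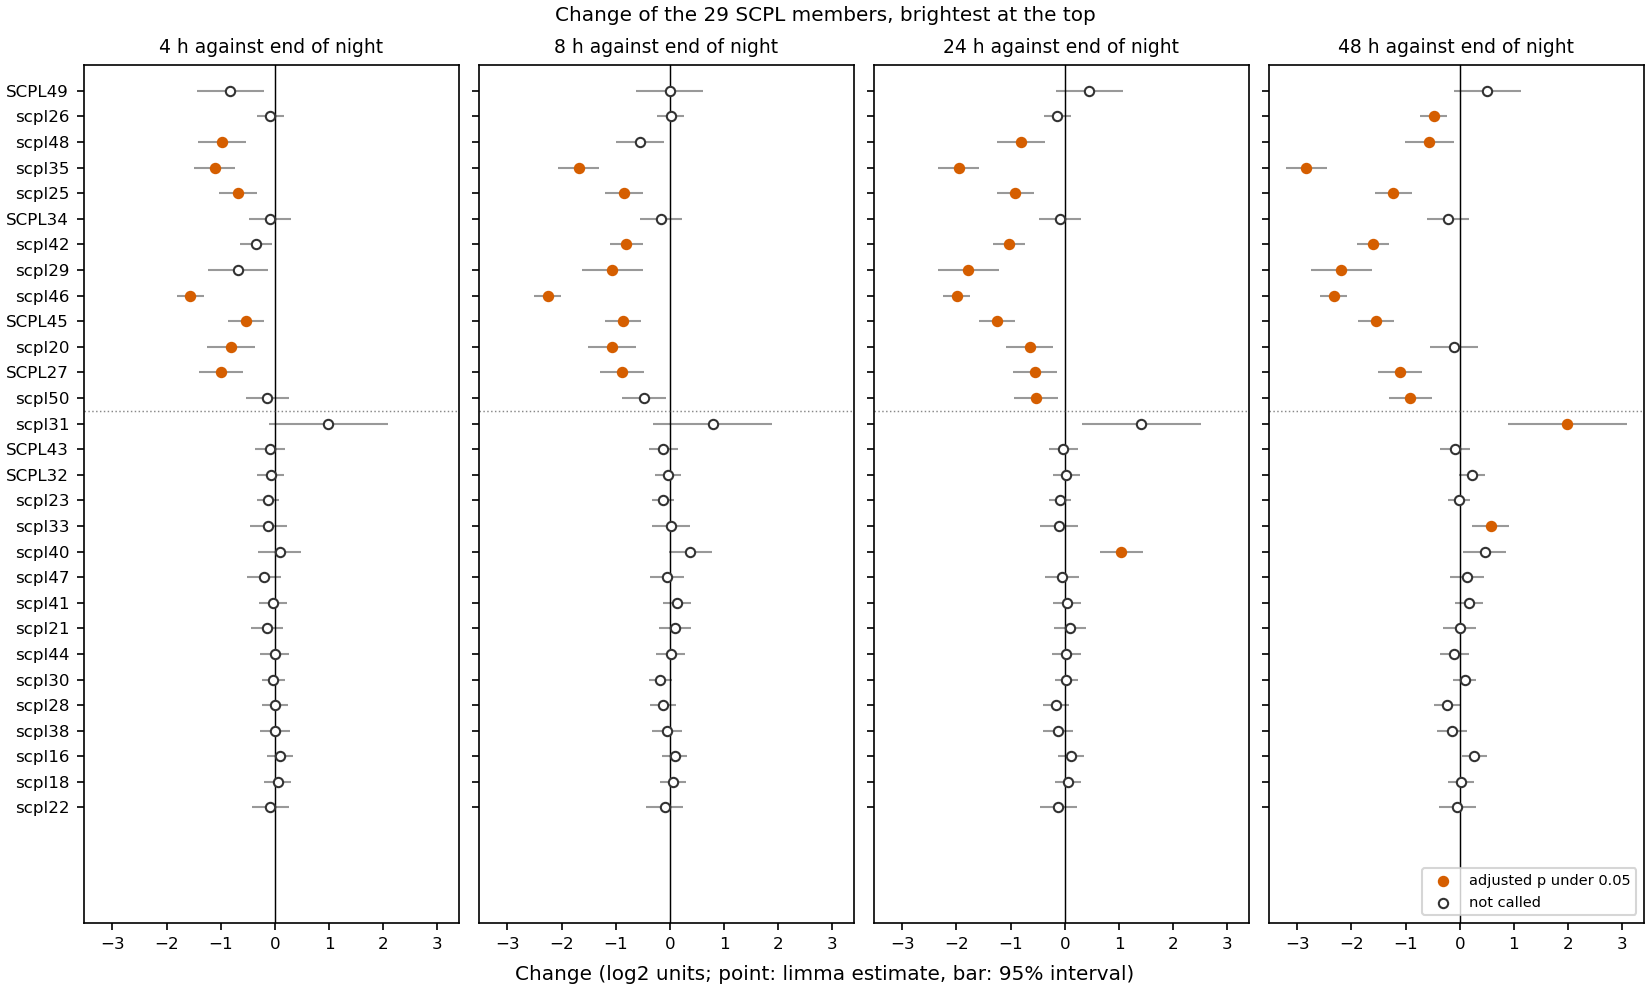
Change against the end of the night at 4 h, 8 h, 24 h and 48 h (log2 units, horizontal axis) for the 29 SCPL members, ordered by mean signal with the brightest at the top. Points are limma estimates, bars their 95% intervals, filled points have an adjusted p under 0.05, and the dotted line parts the 13 brighter members from the 16 dimmer ones. Filled points to the left of 0 all lie above the dotted line, and scpl35 moves furthest left, to -2.84 at 48 h.

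Of the members, 5 were lower at all of 4 h, 8 h, 24 h and 48 h: scpl46, scpl35, SCPL45, scpl25 and SCPL27. scpl46 had the earliest large fall. Its signal was 9.86 with 2 h of the night left, 9.57, 9.61 and 9.54 at the end of the night, 8.92 at 2 h, 7.96 and 8.06 at 4 h, 7.37 at 6 h, 7.34 and 7.29 at 8 h, 7.43 and 7.72 at 24 h, and 7.28 and 7.21 at 48 h. Every array from 2 h onwards lay below every array up to the end of the night, and from 6 h the signal stayed in a narrow band. The change was -1.56 ± 0.11 at 4 h (adjusted p = 3.15e-05) and -2.26 ± 0.11 at 8 h (adjusted p = 1.46e-06), a 4.78-fold fall. At 24 h it was -2.0 ± 0.11 (adjusted p = 1.87e-06) and at 48 h -2.33 ± 0.11 (adjusted p = 3.9e-07), a 5.01-fold fall. In bulk tissue, fewer cells of a type that expresses a gene and less RNA per cell cannot be told apart.

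scpl35 had the largest fall of the family, and it went on to the last time point. The end of the night arrays read 10.00, 9.52 and 9.56, after 9.85 with 2 h of the night left. Later it was 9.15 at 2 h, 8.52 and 8.64 at 4 h, 7.98 at 6 h, 8.10 and 7.93 at 8 h, 7.92 and 7.54 at 24 h, and 6.89 and 6.83 at 48 h. No array after the end of the night reached the lowest end of night array, and both 48 h arrays were below all others. The change was -1.11 ± 0.17 at 4 h (adjusted p = 0.00212), -1.68 ± 0.17 at 8 h (adjusted p = 8.47e-05) and -1.96 ± 0.17 at 24 h (adjusted p = 2.37e-05). It reached -2.84 ± 0.17 at 48 h (adjusted p = 1.36e-06), a 7.14-fold fall. The scpl46 and scpl35 calls against the end of the night at these 4 times kept an adjusted p under 0.05 under every alternative tried that kept that threshold.

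SCPL45 went down more slowly. Its signal was 8.64, 9.0 and 8.52 at the end of the night, then 8.11 and 8.26 at 4 h, 7.94 and 7.79 at 8 h, 7.56 and 7.38 at 24 h, and 7.23 and 7.12 at 48 h. Each later pair lay wholly below the pair before it. The change was -0.54 ± 0.15 at 4 h (adjusted p = 0.0375), -0.86 ± 0.15 at 8 h, -1.25 ± 0.15 at 24 h and -1.55 ± 0.15 at 48 h (adjusted p = 2.74e-05). The 4 h call failed the threshold with end of night array A (adjusted p = 0.0656) or B (0.0836) left out and without 4 h array A (0.234) or B (0.114). It failed likewise with limma's trend and robust options (0.0595) and with only the arrays compared (0.0667).

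scpl25 and SCPL27 took most of their fall within the first 4 h. scpl25 read 9.01, 9.07 and 9.03 at the end of the night, then 8.31 and 8.40 at 4 h, 8.14 and 8.24 at 8 h, 8.21 and 8.03 at 24 h, and 8.09 and 7.53 at 48 h. The 4 h to 24 h arrays were close together, all below the end of the night. The change was -0.68 ± 0.15 at 4 h (adjusted p = 0.0156), -0.85 ± 0.15 at 8 h, -0.91 ± 0.15 at 24 h and -1.22 ± 0.15 at 48 h (adjusted p = 0.000157). Without 4 h array A (adjusted p = 0.117) or B (0.0744) the 4 h call was lost.

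SCPL27 read 7.96, 7.46 and 7.94 at the end of the night, then 6.76 and 6.82 at 4 h, 6.92 and 6.89 at 8 h, 6.99 and 7.47 at 24 h, and 6.65 and 6.71 at 48 h. The single array with 2 h of the night left read 7.35, below every end of night array. Array C at 24 h reached the lowest end of night array, and at the other 3 times the groups did not overlap. The change was -1.0 ± 0.18 at 4 h (adjusted p = 0.0052), -0.88 ± 0.18 at 8 h, -0.55 ± 0.18 at 24 h (adjusted p = 0.0409) and -1.11 ± 0.18 at 48 h (adjusted p = 0.000808). The 4 h call was lost without 4 h array A (-0.96, adjusted p = 0.0507). The 24 h call failed the threshold with end of night array A (-0.47, adjusted p = 0.121) or C (-0.48, 0.111) left out, without 24 h array B (-0.31, 0.324), with only the arrays compared (0.0957), and after median centring (0.0651) or a second quantile normalization (0.0503).

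scpl29 and scpl42 were called from 8 h onwards, and their largest falls were at 48 h. scpl29 read 9.31, 9.40 and 8.80 at the end of the night, then 8.45 and 8.53 at 4 h, 8.12 and 8.10 at 8 h, 7.38 and 7.41 at 24 h, and 7.43 and 6.54 at 48 h. The end of night array C was the nearest to the later arrays, and no later pair overlapped the end of the night. The change was -0.68 ± 0.25 at 4 h (adjusted p = 0.104, and -0.84 with adjusted p = 0.00893 when the array letter entered as a block). It was -1.06 ± 0.25 at 8 h (adjusted p = 0.0106), -1.78 ± 0.25 at 24 h (adjusted p = 0.000457) and -2.19 ± 0.25 at 48 h (adjusted p = 8.02e-05). The 8 h call was lost without 8 h array A (adjusted p = 0.0577) or B (0.0594).

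scpl42 read 9.03, 8.81 and 8.80 at the end of the night, then 8.60 and 8.47 at 4 h, 8.02 and 8.14 at 8 h, 7.90 and 7.80 at 24 h, and 7.46 and 7.11 at 48 h. As for SCPL45, every pair lay below the pair before it. The change was -0.35 ± 0.13 at 4 h (adjusted p = 0.116, and -0.41 with adjusted p = 0.0280 with the letter block). It was -0.80 ± 0.13 at 8 h (adjusted p = 0.00155), -1.03 ± 0.13 at 24 h (adjusted p = 0.000263) and -1.59 ± 0.13 at 48 h (adjusted p = 1.04e-05).

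scpl20 fell first and was back near its starting signal at 48 h. It read 8.42, 8.35 and 8.05 at the end of the night, then 7.44 and 7.50 at 4 h, 7.30 at 6 h, 6.96 and 7.45 at 8 h, 7.66 and 7.59 at 24 h, and 8.43 and 7.90 at 48 h. The 48 h arrays overlapped the end of the night, and the arrays from 4 h to 24 h did not. The change was -0.81 ± 0.19 at 4 h (adjusted p = 0.0213), -1.07 ± 0.19 at 8 h (adjusted p = 0.0027), -0.65 ± 0.19 at 24 h (adjusted p = 0.0292) and -0.11 ± 0.19 at 48 h (adjusted p = 0.712). The comparison of 48 h with 8 h, added after the values were seen, gave 0.96 ± 0.21 (adjusted p = 0.0154). It was lost without 48 h array B (0.70, adjusted p = 0.0725) and without 8 h array A (0.71, adjusted p = 0.109). The 4 h call failed the threshold with end of night array A (adjusted p = 0.0676) or B (0.0622) left out and without 4 h array A (0.132) or B (0.102). The 24 h call failed the threshold with end of night array A (0.0891) or B (0.0783) left out, without 24 h array B (0.0991) or C (0.137), and after median centring (0.0506).

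SCPL49, the gene also named carboxypeptidase Y and the brightest probe set of the family, had its lowest time point mean at 4 h and a higher signal afterwards. It read 10.10, 9.31 and 9.23 at the end of the night, 9.40 at 2 h, 8.98 and 8.47 at 4 h, 9.19 at 6 h, 9.64 and 9.44 at 8 h, 10.10 and 9.90 at 24 h, and 10.31 and 9.81 at 48 h. End of night array A lay well above B and C, and the 4 h and 6 h arrays were below all 3. Against the end of the night the change was -0.82 ± 0.27 at 4 h (adjusted p = 0.0761), -0.00 ± 0.27 at 8 h, 0.45 ± 0.27 at 24 h and 0.51 ± 0.27 at 48 h (adjusted p = 0.179), with no call. With the array letter as a block it was called at 3 of these times, at -1.01 ± 0.14 at 4 h (adjusted p = 0.00117), 0.66 ± 0.14 at 24 h (adjusted p = 0.00457) and 0.72 ± 0.14 at 48 h (adjusted p = 0.00225). Without end of night array A, and with no block, it was called at 24 h (0.73, adjusted p = 0.0365) and 48 h (0.79, 0.0205). The comparison of 24 h with 4 h, also added after the values were seen, gave 1.27 ± 0.30 (adjusted p = 0.0223). It was lost without 4 h array B (1.02, adjusted p = 0.15) and without 24 h array B (1.17, 0.117) or C (1.37, 0.0794).

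scpl48 had its lowest time point mean at 4 h. It read 9.26, 9.35 and 9.36 at the end of the night, then 8.10 and 8.59 at 4 h, 8.43 at 6 h, 8.74 and 8.81 at 8 h, 8.56 and 8.48 at 24 h, and 9.10 and 8.43 at 48 h. All later arrays lay below the end of the night, 48 h array B by the least. The change was -0.98 ± 0.20 at 4 h (adjusted p = 0.00891), -0.55 ± 0.20 at 8 h (adjusted p = 0.0676, and -0.59 with adjusted p = 0.0210 with the letter block), -0.80 ± 0.20 at 24 h (adjusted p = 0.0114) and -0.56 ± 0.20 at 48 h (adjusted p = 0.047). Leaving out 4 h array A ended the 4 h call (-0.73, adjusted p = 0.0996), and the 24 h call was lost without 24 h array B (-0.84, 0.0522) or C (-0.77, 0.0724). The 48 h call was lost without 48 h array C (-0.23, adjusted p = 0.397), with any 1 end of night array left out (adjusted p from 0.0787 to 0.101) with only the arrays compared (0.0895) and after median centring (0.0945).

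scpl50 and scpl26 had their largest falls at 48 h. scpl50 read 7.26, 6.93 and 7.16 at the end of the night, then 6.81 and 7.14 at 4 h, 6.84 and 6.44 at 8 h, 6.74 and 6.44 at 24 h, and 6.09 and 6.33 at 48 h. The pairs from 8 h onwards lay below the end of the night, and the 4 h pair overlapped it. The change was -0.14 ± 0.18 at 4 h and -0.48 ± 0.18 at 8 h (adjusted p = 0.0773), with no call. It was -0.53 ± 0.18 at 24 h (adjusted p = 0.0452, and 0.0591 with the letter block) and -0.91 ± 0.18 at 48 h (adjusted p = 0.00237). The 24 h call also failed the threshold with end of night array A (-0.46, adjusted p = 0.129) or C (-0.51, 0.0997) left out, without 24 h array B (-0.68, 0.0585) or C (-0.38, 0.283), with trend and robust options (0.0509), and after median centring (0.0722) or a second quantile normalization (0.0714). scpl26 read 9.56, 9.57 and 9.48 at the end of the night, then 9.51 and 9.60 at 8 h, and 8.97 and 9.13 at 48 h. It was called at 48 h alone among the 4 times, at -0.48 ± 0.11 (adjusted p = 0.00629).

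SCPL34 was the brighter member called in no comparison. It read 8.45, 8.52 and 8.31 at the end of the night and 8.53 and 7.90 at 48 h, the arrays overlapping at all 4 times. Its change at 48 h was -0.21 ± 0.17, with a 95% interval from -0.60 to 0.17, so a fall by more than that bound lies outside the interval. Without 48 h array B it was -0.53 (adjusted p = 0.0155).

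**Figure D3:**
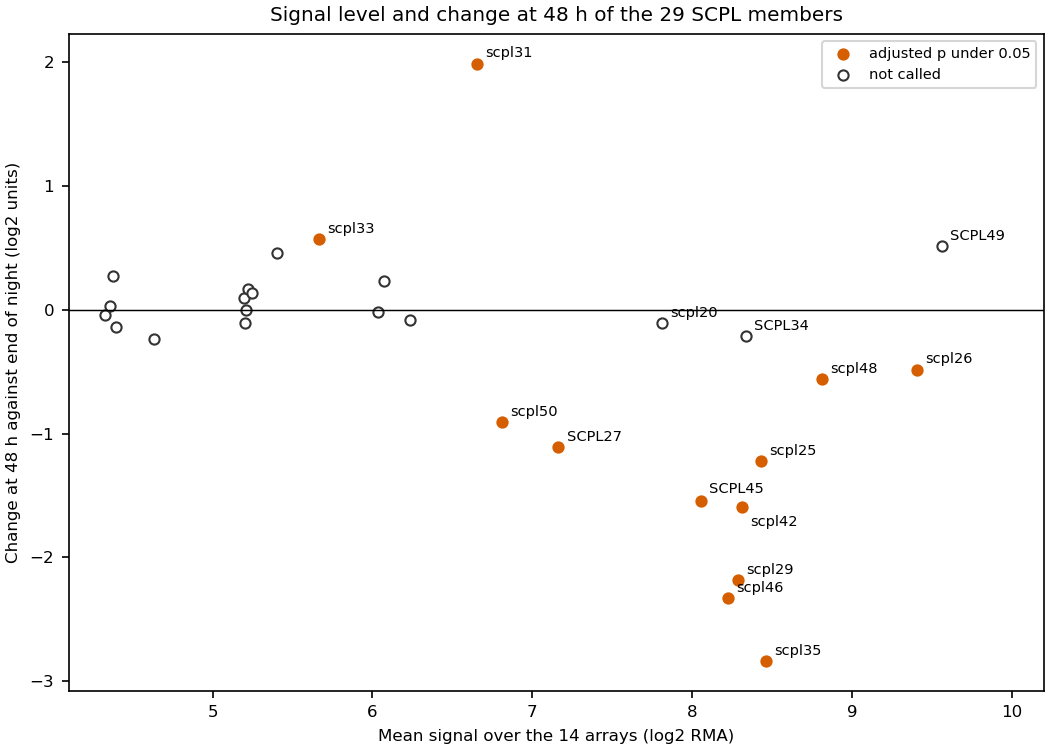
Change at 48 h against the end of the night (log2 units, vertical axis) and mean signal over the 14 arrays (log2 RMA, horizontal axis) of the 29 SCPL members, each a point, filled where the adjusted p was under 0.05. The 10 filled points below 0 lie at mean signals of 6.81 and above, and the 2 filled points above 0, scpl31 and scpl33, lie at 6.65 and 5.67.

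Among the 16 dimmer members, 3 were higher at 1 of the times 4 h, 8 h, 24 h and 48 h: scpl31 and scpl33 at 48 h and scpl40 at 24 h. scpl31 read 5.59 with 2 h of the night left, 5.78, 5.78 and 5.82 at the end of the night, 6.36 at 2 h, 7.02 and 6.54 at 4 h, 7.11 at 6 h, 7.53 and 5.65 at 8 h, 7.54 and 6.87 at 24 h, and 8.25 and 7.31 at 48 h. Every array after the end of the night lay above it except 8 h array B, and the 8 h pair differed by 1.88 log2 units, the widest gap of any member between replicates. The change was 0.99 ± 0.49 at 4 h (adjusted p = 0.235), 0.79 ± 0.49 at 8 h (adjusted p = 0.296) and 1.41 ± 0.49 at 24 h (adjusted p = 0.0519, and 1.68 with adjusted p = 0.0111 with the letter block). With only the arrays compared it was called at 4 h (adjusted p = 0.0073) and at 24 h (0.00209). The 24 h change was also called after median centring (0.04), after a second quantile normalization (0.0464), without the dimmest probe sets (0.0287) and without the 48 h arrays (0.0418). At 48 h it was 1.99 ± 0.49 (adjusted p = 0.00873), a 3.96-fold rise. Without 48 h array B the 48 h change was 1.52 and the call was lost (adjusted p = 0.0732). Without 8 h array B the 8 h change was 1.73 and was called (adjusted p = 0.0124).

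scpl40 was highest at 24 h. It read 5.26, 5.22 and 4.80 at the end of the night, then 5.19 and 5.17 at 4 h, 5.87 at 6 h, 5.54 and 5.40 at 8 h, 6.30 and 5.97 at 24 h, and 5.74 and 5.35 at 48 h. The arrays at 8 h, 24 h and 48 h lay above the end of the night, those at 48 h by 0.09 log2 units at the nearest. The change was 1.04 ± 0.18 at 24 h (adjusted p = 0.00152) and 0.46 ± 0.18 at 48 h (adjusted p = 0.0685, and 0.55 with adjusted p = 8.00e-04 with the letter block). Without 48 h array C the 48 h change was 0.65 and was called (adjusted p = 0.0347), as it was after median centring (0.55, adjusted p = 0.034).

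scpl33 was flat through 24 h and higher at 48 h. It read 5.55, 5.57 and 5.81 at the end of the night, then 5.55 and 5.53 at 24 h, and 6.47 and 5.95 at 48 h. The change at 48 h was 0.57 ± 0.15 (adjusted p = 0.0144), and without 48 h array B, the higher of the pair, it was 0.31 and not called (adjusted p = 0.123). With only the arrays compared it was not called either (adjusted p = 0.0643).

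The other 13 dimmer members were called in no comparison: SCPL43, SCPL32, scpl23, scpl47, scpl41, scpl21, scpl44, scpl30, scpl28, scpl38, scpl16, scpl18 and scpl22. Their mean signals lay between 4.32 and 6.23, their ranges over the 14 arrays between 0.27 and 0.58 log2 units, and their changes at the 4 times between -0.24 and 0.27. Both measured genes of the acyltransferase number range were among the dimmest of these, scpl16 with a mean of 4.38 and scpl18 with 4.36. At 48 h scpl16 was called higher after median centring (0.36, adjusted p = 0.0232) and with trend and robust options (0.27, 0.0222), and SCPL32 without 48 h array C (0.36, 0.0476).

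**Figure D4:**
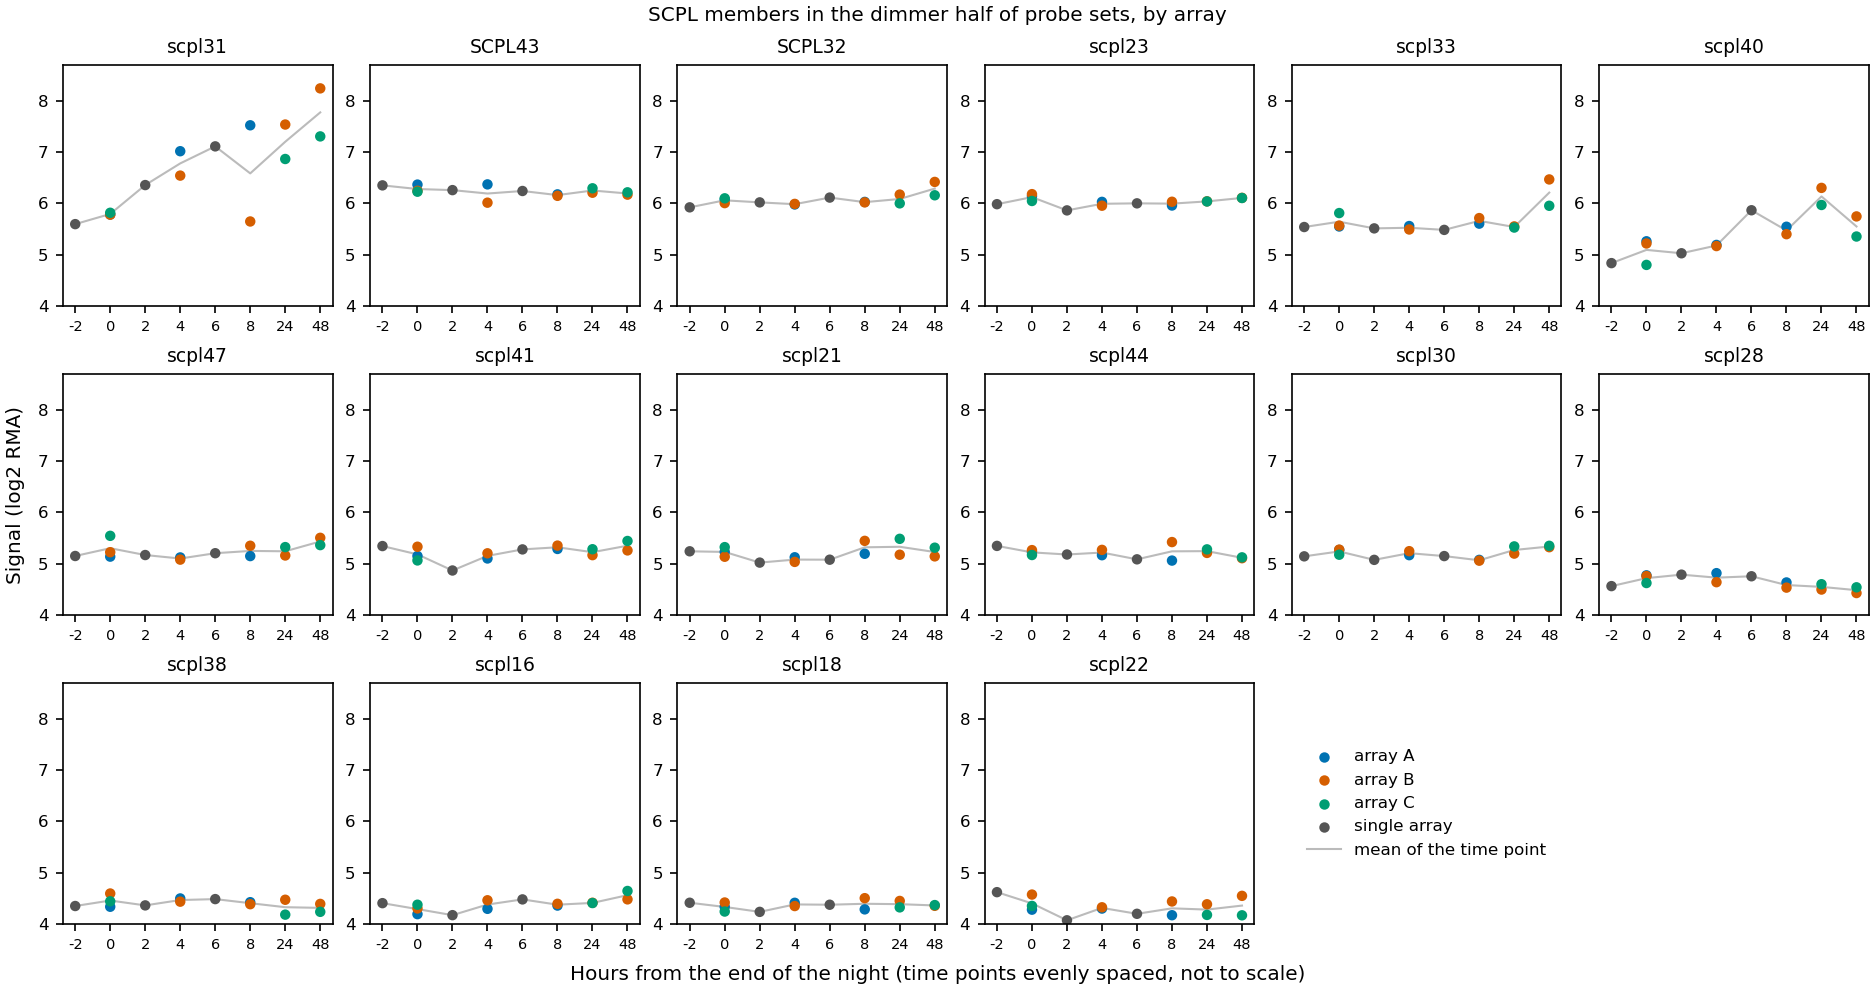
Signal of the 16 dimmer SCPL members on each of the 14 arrays (log2 RMA, vertical axis) against hours from the end of the night (horizontal axis, time points evenly spaced). Points are arrays coloured by letter and the grey line joins time point means. scpl31 and scpl40 leave their end of night level, scpl33 does so at 48 h, and the other 13 stay within 0.58 log2 units.

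Successive times gave few calls among the members, 3.45%, 0% and 3.45% of them in turn, near the share over all probe sets. Between 4 h and 8 h, scpl46 alone was called, at -0.69 ± 0.12 (adjusted p = 0.0152), where 3.84% of all probe sets were called, 2.18% lower and 1.66% higher. That call was lost without any 1 of the 4 arrays concerned (adjusted p from 0.0643 to 0.107). With the letter block 4 members were called, among them scpl35 (-0.57, adjusted p = 0.0436), scpl42 (-0.45, 0.0464) and SCPL49 (0.82, 0.0102). Over all 22746 probe sets the block called 2459 between these times. Between 8 h and 24 h, limma called 0 members, where 3.24% of all probe sets were called, 1.89% lower and 1.35% higher. At an unadjusted p under 0.05 it gave 3, scpl40 higher and scpl29 and SCPL45 lower, and the letter block called 2, scpl40 (0.89, adjusted p = 0.00267) and SCPL49 (0.85, 0.0199). The block called 1523 of all 22746 probe sets between 8 h and 24 h.

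Between 24 h and 48 h, scpl35 alone was called, at -0.88 ± 0.18 (adjusted p = 0.0284), where 5.03% were called, 2.55% lower and 2.48% higher. It was lost without any 1 of the 4 arrays, with changes between -0.69 and -1.07. Without 48 h array B scpl42 was called instead, lower (-0.74), and without 48 h array C scpl33, higher (0.93). With the letter block 4 members were called: scpl35, scpl42 (-0.56, adjusted p = 0.0177), scpl40 (-0.59, 0.00509) and scpl33 (0.67, 0.0327). Over all 22746 probe sets the block called 2972 between 24 h and 48 h.

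Wider intervals were chosen after the values were seen, so their calls are a description of that pattern. From 8 h to 48 h scpl35 fell by 1.15 ± 0.18 (adjusted p = 0.00313), scpl29 by 1.13 ± 0.27 (0.0228), scpl42 by 0.79 ± 0.14 (0.006), SCPL45 by 0.69 ± 0.16 (0.021) and scpl26 by 0.50 ± 0.12 (0.0234). With the rise of scpl20 these were 6 members called (20.7%, against 15.1% of all probe sets, 7.68% lower and 7.4% higher). With only the arrays compared 1 of them was called. Leaving out any 1 array lost some of these 6. It also brought in others: scpl31 (2.13) without 8 h array A, scpl25 (-0.66) without 48 h array B and scpl33 (0.81) without 48 h array C. The 48 h against 8 h change of scpl46 was -0.07, and scpl46 was not called. From 4 h to 24 h 7 members were called (24.1%, against 13.6%, 7.46% lower and 6.11% higher), scpl42, scpl35, scpl29, scpl46 and SCPL45 lower and SCPL49 and scpl40 (0.96 ± 0.20) higher. Between 0 and 2 of these 7 were called when 1 of the 4 arrays was left out. The calls of scpl29, SCPL45 and scpl26 from 8 h to 48 h were likewise lost without 1 of 3 arrays each, while scpl35 and scpl42 kept theirs when any array was left out.

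The single arrays filled in the first hours. With 2 h of the night left limma called 0 members (0.00879% of all probe sets), and 0 at an unadjusted p under 0.05. At 2 h into the extended night it again called 0 (0.435% of all probe sets, 0.044% lower and 0.391% higher), with 3 lower at an unadjusted p under 0.05. scpl46 stood at -0.65 ± 0.14 there (adjusted p = 0.125) and scpl35 at -0.55 ± 0.21 (adjusted p = 0.568). At 6 h 8 members were called, 7 lower and 1 higher, where 18.0% of all probe sets were called, 9.7% lower and 8.29% higher. scpl46 was at -2.21 ± 0.14 (adjusted p = 1.94e-05) and scpl35 at -1.72 ± 0.21 (adjusted p = 0.000678). SCPL27, scpl20, scpl25, SCPL45 and scpl48 were lower by 0.89 to 0.99, and scpl40 was higher by 0.77 ± 0.23 (adjusted p = 0.0424). The 6 h calls of scpl48 and scpl20 were lost without single end of night arrays (adjusted p from 0.0555 to 0.075), as was that of scpl40 without array B (0.0567) or C (0.0752).

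A straight line through the 10 arrays spanning the last 2 h of the night and the first 8 h of its extension was called for 11 members, 10 downwards and 1 upwards, where 36.2% of all probe sets were called, 19.7% downwards and 16.5% upwards. The steepest slope was that of scpl46, at -0.29 ± 0.02 log2 units per hour (adjusted p = 3.42e-06), followed by scpl35 at -0.21 ± 0.02 (adjusted p = 1.39e-05). scpl29 and scpl20 fell by 0.14 per hour, and scpl25, SCPL45, SCPL27, scpl42, scpl48 and scpl50 by 0.11 to 0.07. scpl40 rose by 0.07 per hour (adjusted p = 0.0188). The largest upward slope was that of scpl31, at 0.13 per hour, which was not called. In limma it was called after median centring (0.14, adjusted p = 0.0369) and without the dimmest probe sets (0.13, 0.0357). Without 8 h array B the scpl31 slope was 0.21. The fit with the letter block left out the single arrays, so its slope rested on the lettered arrays at 0 h, 4 h and 8 h alone. There 7 members were called, and the slopes of scpl40 (0.03, adjusted p = 0.237), scpl48 (0.361), SCPL27 (0.112) and scpl50 (0.163) were not. Loss of those arrays and the block were not tested apart. Over all 22746 probe sets the block called 5768 slopes. The slope calls of scpl48 were also lost when any 1 end of night array was left out (adjusted p from 0.0689 to 0.0744), and that of scpl40 without 8 h array A (0.0507). Across all 8 times, a moderated F-test called 11 members, against 35.5% of all probe sets. SCPL49 was not among them (adjusted p = 0.0639, and 2.18e-04 with the letter block, which covers the 5 replicated times only).

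Some measured SCPL genes are neighbours in the genome. The adjacent genes scpl28 and scpl26 were both measured: scpl26 was called at 48 h, and scpl28, with signals between 4.42 and 4.81 on the 14 arrays, was called in no comparison. The adjacent genes scpl22 and scpl23 were called in none. A further pair of probe sets was annotated to an SCPL gene together with another gene, the first to scpl36 and scpl37 and the second to scpl39 and another locus. Their signals lay between 4.35 and 4.72 and between 4.09 and 4.48, and neither was called. Cross-hybridization between related SCPL transcripts was not tested.

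Other proteases of the vacuole and the papain-like class were counted beside the SCPL members. Of 21 listed genes 11 were measured. At 4 h 2 were higher and 0 lower, at 8 h and at 24 h 7 were higher and 0 lower, and at 48 h 7 were higher and 1 lower. Over all probe sets 7.49%, 12.7%, 15.5% and 20.5% were called higher at these times. Their median change was 0.11, 0.63, 0.76 and 0.78 log2 units at these times. AT3G19390, a papain-like cysteine protease, read 5.52, 5.35 and 5.32 at the end of the night, then 8.26 and 7.77 at 4 h, 8.78 and 8.63 at 8 h, 9.54 and 8.57 at 24 h, and 10.00 and 9.57 at 48 h. All its later arrays from 4 h lay far above the end of the night, with a rise of 2.62 ± 0.27 at 4 h (adjusted p = 0.000259) and 4.39 ± 0.27 at 48 h (adjusted p = 1.56e-06).

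AT1G02300, a cathepsin B-like protease, rose by 0.89 ± 0.24 at 4 h (adjusted p = 0.0332) and 3.12 ± 0.24 at 48 h (adjusted p = 6.35e-06). Its relatives AT4G01610 and AT1G02305 rose by 2.36 ± 0.22 and 1.86 ± 0.19 at 48 h. GAMMA-VPE, a vacuolar processing enzyme that activates other vacuolar proteases, rose by 0.97 ± 0.16 at 8 h, 1.39 ± 0.16 at 24 h and 1.64 ± 0.16 at 48 h (adjusted p = 2.42e-05). The aspartic protease gene APA1 rose by 0.78 ± 0.12 at 48 h, and AT4G04460, of the same class, fell by 0.34 ± 0.11 (adjusted p = 0.036).

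**Figure D5:**
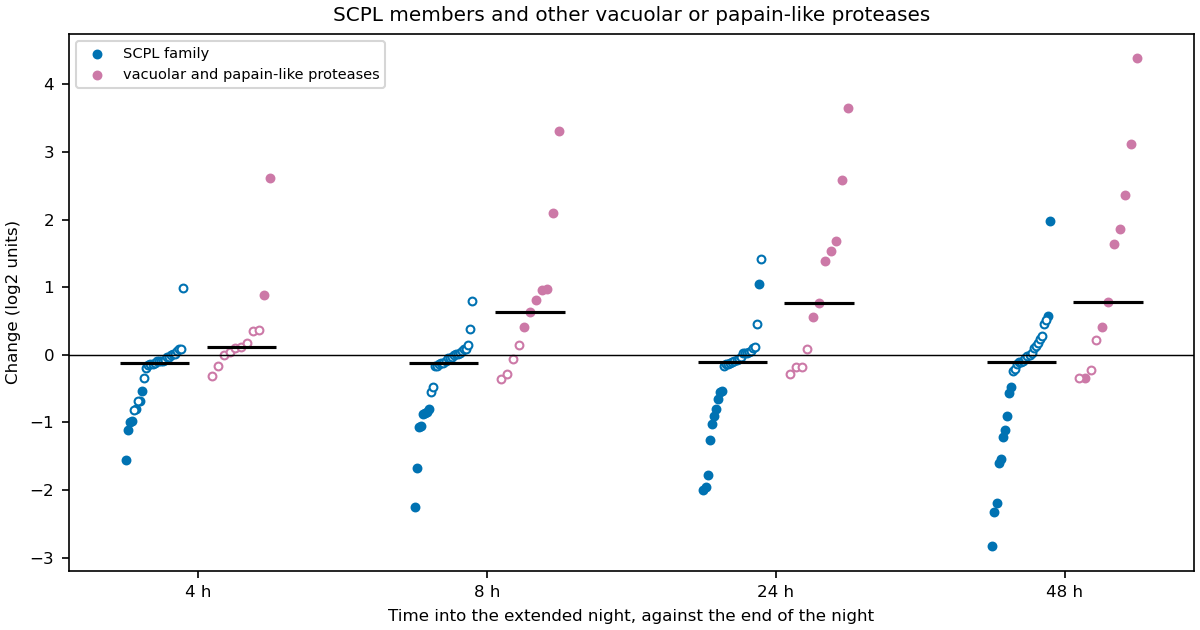
Changes against the end of the night (log2 units, vertical axis) at 4 h, 8 h, 24 h and 48 h for the 29 SCPL members and the 11 measured genes of the vacuolar and papain-like protease list. Each point is a gene, filled where the adjusted p was under 0.05, and the black bar is the median of the group. At 48 h the SCPL median is -0.11 and that of the other proteases 0.78.

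The sinapate ester and phenylpropanoid pathway, which supplies the SCPL acyltransferases with sinapate glucose esters, was covered by 5 of 22 listed genes. The list also held the acyltransferases SNG1 and SNG2 themselves, neither of them measured. UGT84A3, one of the glucosyltransferases that make hydroxycinnamate glucose esters, read 5.55, 5.39 and 5.33 at the end of the night and 7.87 and 7.42 at 8 h. It rose by 0.93 ± 0.15 at 4 h, 2.22 ± 0.15 at 8 h, 1.49 ± 0.15 at 24 h and 1.96 ± 0.15 at 48 h (adjusted p = 7.61e-06). HCT, a hydroxycinnamoyltransferase earlier in phenylpropanoid synthesis, read 11.43, 10.97 and 11.18 at the end of the night and 9.84 and 10.37 at 48 h. It fell by 1.02 ± 0.24 at 8 h, 1.17 ± 0.24 at 24 h and 1.09 ± 0.24 at 48 h (adjusted p = 0.00536). The other 3, ALDH2C4, UGT84A4 and UGT84A1, were not called at 4 h, 8 h, 24 h or 48 h.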

How the data were processed

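The deposited table holds log2 signals of 22810 probe sets on 14 ATH1 arrays, made by the authors with RMA per the submitters' processing notes (version not given in the sources used here). The depth of an array has no count, and the number of arrays limits precision: 5 of 8 time points are replicated, with 6 residual degrees of freedom. Whether replicate arrays came from separate batches of plants is not stated, so p-values measure only the spread between these samples, which may be technical. After removal of 64 controls, 22746 probe sets were tested in limma 3.58.1 (R 4.3.3; lmFit and eBayes, two-sided, 1 fit of all arrays with time as a factor), with Benjamini-Hochberg adjustment within each comparison. A single array was assumed to vary like the replicated times. The slope used 10 arrays. Intervals are 95%. Changes are relative to the normalized arrays. Tables used pandas 2.3.3 and numpy 2.4.6 in Python 3.11.15, and figures matplotlib 3.10.9. The limma scripts were tested on simulated data.

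Of the probe sets, 13513 carried exactly 1 gene in the array annotation, 503 several and 8730 none. Symbols and neighbours came from the RefSeq table of TAIR10.1, which held the gene of 13436. The members and lists were chosen with earlier results of these data known. Named were, by rule, the members called in any comparison of replicated times, the 5 largest called rises and falls of each comparison, scpl35 and scpl46, and up to 4 called members of each other list; members not called are named so that all 29 are accounted for.

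Letters shared between times were taken to pair the samples, since, as departures from their time point mean, all 16 same-letter pairs of arrays had correlations of 0.170 to 0.580 (-0.580 to 0.365 in 32 pairs of different letters, many of which mirror these by construction). A fit of the 11 lettered arrays with the letter as a block was therefore an alternative. Others were stricter thresholds, median centring, a second quantile normalization, a fit without the dimmest 33.3% of probe sets, limma's trend and robust options, only the arrays compared, no 48 h arrays, and each replicate left out. The comparisons of 24 h with 4 h and of 48 h with 8 h, and the fit without 48 h array B, were added after the values were seen.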

Additional observations from a re-analysis of the deposited data

How the results depend on the processing

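Of the 83 calls of a member in a comparison, 47 kept an adjusted p under 0.05 under every alternative with that threshold. The 1331 alternative values, stricter thresholds included, were past the threshold in the same direction in 1134 cases, in the same direction but short of it in 197, and opposite in 0. They include settings that changed only the choice of probe set, which repeat the main fit because each member had 1 probe set. Stricter thresholds reuse the same changes, and the F-test value is a range that is never negative. Agreement of these values was fixed in advance, so the counts overstate the stability. At an adjusted p under 0.01 the members called were 4 at 4 h, 7 at 8 h, 7 at 24 h, 10 at 48 h and 4 at 6 h. Over all 22746 probe sets 1950, 4166, 5124, 6981 and 2198 were called at these times. Between 4 h and 8 h, between 24 h and 48 h and from 4 h to 24 h it was 0 members, beside 263, 362 and 1499 probe sets. From 8 h to 48 h it was 2, beside 1686. With a change of at least 2-fold required, the members called were 2, 4, 6 and 8 at 4 h, 8 h, 24 h and 48 h, and 2 at 6 h. Over all probe sets 1298, 2692, 3374, 4773 and 2210 were called at these times. Between 4 h and 8 h and between 24 h and 48 h it was 0 members, beside 416 and 563 probe sets. Each of the wider intervals had 2, beside 1292 from 4 h to 24 h and 1452 from 8 h to 48 h. With the replicate block 4 members were called between 4 h and 8 h, 2 between 8 h and 24 h, 4 between 24 h and 48 h, and 7 for the slope; beyond the calls given with the results above, the block also called scpl31 (1.68, adjusted p = 0.0408) and SCPL49 (0.91, 0.00484) from 8 h to 48 h, and scpl33, scpl31 and scpl26 in the F-test (adjusted p = 0.0423, 0.0139 and 0.0251), and it changed no other member's call. Between 24 h and 48 h the count was 2 after a second quantile normalization, 2 with trend and robust options and 0 with only the arrays compared, which left 1 from 8 h to 48 h. Over all 22746 probe sets these fits called 1137, 1095, 2 and 975 in turn. Leaving out 1 replicate gave 2 to 7 members at 4 h, 7 to 8 at 8 h, 7 to 10 at 24 h, 11 to 13 at 48 h, 5 to 7 at 6 h, 0 to 0 between 4 h and 8 h, 0 to 1 between 24 h and 48 h, 0 to 2 from 4 h to 24 h, 3 to 5 from 8 h to 48 h, 9 to 12 in the F-test and 10 to 13 for the slope. These leave-one-out counts can include members that the main fit did not call. With 1 end of night array left out, 5 to 7 members were called at 4 h and 8 at 8 h. Over all 22746 probe sets that gave 2786 to 2930 and 5407 to 5569. At 24 h it gave 9 to 10 members and 6399 to 6847 probe sets, and at 48 h 11 to 12 and 8308 to 8717. With 48 h array B out of every comparison, 8, 9 and 12 members were called at 4 h, 8 h and 24 h, beside 4340, 6919 and 8114 of all probe sets. The standard error of a member's change at 48 h ran from 0.09 (scpl23) to 0.49 (scpl31).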
